A study of Mus musculus with 6 samples.

Results

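The aryl hydrocarbon receptor pathway was followed through 8 genes in cultured muscle-derived stem/progenitor cells (MDSPCs) of mice. The genes are the receptor Ahr, its partner Arnt, its repressors Ahrr and Tiparp, and the target enzymes Cyp1a1, Cyp1b1, Aldh3a1 and Nqo1, out of 21485 genes counted in all samples. They were selected on the measured levels of Aldh3a1 and Cyp1a1, which had led 1 old population in an earlier look at the same data, and the rest were added as members of the same pathway. The levels of these 2 genes over the populations, and all values of cells that carry them together, are therefore given as a description with no test. MDSPCs are the slowly adhering cells left after dissociated skeletal muscle has been moved through a series of collagen-coated flasks. Young mice gave 3 such populations and old mice another 3, all grown in the same serum-rich proliferation medium, and the RNA of their single cells was sequenced from the 3′ end after capture in droplets. Each population was 1 library and 1 replicate, and the labels call them biological replicates but give no age, sex, strain or number of mice. No compound that binds the receptor is named for any group.

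As background, the aryl hydrocarbon receptor is a transcription factor that waits in the cytoplasm, bound to the chaperone HSP90, until it binds a small molecule such as a planar aromatic pollutant or a breakdown product of tryptophan. It then enters the nucleus, pairs with ARNT and binds short DNA elements near its targets, whose best known member is the cytochrome P450 gene Cyp1a1. AHRR competes for ARNT, and TIPARP adds ADP-ribose to the receptor, so that both limit the response and both are themselves targets. Aldh3a1, an aldehyde dehydrogenase, and Nqo1, a quinone reductase, are targets that also respond to oxidative stress, Nqo1 through the factor NRF2.

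To show where the receptor's DNA element could lie, the stretch before the start site is printed for 3 of the 5 genes with a match to it. RefSeq promoters matched 6 of the 8 genes, in the build GRCm38.p6. No entry was found for Ahr or Aldh3a1. The element's core GCGTG was searched on both strands in the 250 bases before each start site, and capitals mark it, as CACGC where it lies on the other strand.
Cyp1a1, chr9:57697363-57697612 (plus strand): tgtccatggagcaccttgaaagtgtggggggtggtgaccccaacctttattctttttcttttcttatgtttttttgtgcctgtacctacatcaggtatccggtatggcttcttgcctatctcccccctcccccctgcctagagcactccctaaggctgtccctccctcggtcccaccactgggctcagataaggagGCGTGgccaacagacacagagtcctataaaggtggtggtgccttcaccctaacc
Cyp1b1, chr17:79715062-79715311 (minus strand): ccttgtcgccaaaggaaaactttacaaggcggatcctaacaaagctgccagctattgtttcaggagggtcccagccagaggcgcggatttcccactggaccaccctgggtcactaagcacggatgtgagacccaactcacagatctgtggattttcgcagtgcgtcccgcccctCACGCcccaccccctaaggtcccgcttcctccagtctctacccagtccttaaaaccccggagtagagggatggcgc
Ahrr, chr13:74292332-74292581 (minus strand): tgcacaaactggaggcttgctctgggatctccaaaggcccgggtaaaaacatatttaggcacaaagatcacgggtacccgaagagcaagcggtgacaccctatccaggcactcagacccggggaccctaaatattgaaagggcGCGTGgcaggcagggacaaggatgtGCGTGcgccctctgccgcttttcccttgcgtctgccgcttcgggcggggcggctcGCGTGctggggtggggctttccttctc
Start sites here are RefSeq's. The Cyp1a1 window lies inside the gene's span in the other annotation used for positions below, which begins at 57687928. The core occurred at 54 bases before the start site in Cyp1a1 and at 76 bases in Cyp1b1. Ahrr held it 3 times, at 107, 82 and 27 bases. Arnt and Tiparp each held it 1 time, at 29 and 170 bases, and the window of Nqo1 had no match. Of 32851 mouse promoters of this length, 28.2% held the core, so 5 of 6 matched genes had letters that are common. The longer form TNGCGTG, which contains the core, was found in Ahrr alone of the 6, and in 4.10% of all promoters. A further pattern, TGANNNNNGC, was in none of the 6 windows and in 37.2% of all promoters. Its spacing differs from that of the core of the antioxidant response element, so this search says nothing of that element. The matches of all these patterns are letter matches in a short window and say nothing of binding.

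The kept cells numbered 8674, 10806 and 10780 in young replicates 1 to 3 and 10147, 8725 and 12541 in old replicates 1 to 3. Their median depth lay between 13001 and 19951 unique molecular identifiers (UMIs, tags that let each RNA molecule be counted once). Values below are unscaled CPM of the summed cells (a gene's count scaled to a common library total) unless said otherwise, always in the order of replicates 1, 2 and 3. Young replicate 1 and old replicate 1 were counted on a shorter gene list than the other 4 samples. Any 2 libraries shared 24 to 41 cell barcodes. The populations differed in myogenic genes: the share of cells with a UMI of Myog, which encodes the differentiation factor myogenin, at 5000 UMIs per cell was 3.47%, 20.3% and 5.31% for young and 0.707%, 14.7% and 45.8% for old populations. Summed CPM of 10 myogenic markers ranged from 145 to 1453 in the young and from 147 to 2439 in the old populations. The 6 immune markers summed to at most 8.20 CPM in any sample, and the 6 endothelial markers to 59.4 CPM in young replicate 2, of which Tek alone held 58.9, and at most 1.72 CPM elsewhere. The 8 epithelial markers summed to 126 CPM in old replicate 2, of which Cldn4 alone held 107, and 3.05 to 17.8 CPM elsewhere. The 6 Schwann cell markers summed to 26.3 CPM in young replicate 2, of which Ngfr held 19.9, and at most 5.89 CPM elsewhere. Sums ranged from 39.2 to 1503 CPM for 6 mural, from 206 to 434 CPM for 10 fibro-adipogenic and from 13.5 to 116 CPM for 6 adipocyte markers. The highest mural and adipocyte sums were those of old replicate 3, where Acta2 alone held 1477 and Car3 alone 114 CPM. In summed samples, fewer cells using a gene and less RNA per cell cannot be told apart.

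The receptor itself was expressed at a low level in every population and did not separate by age. Ahr (chr12:35497974-35535038, minus strand, GRCm38; ENSMUSG00000019256) stood at 3.78, 6.11 and 12.6 CPM (young) and 11.4, 2.31 and 4.98 CPM (old). Young replicate 3 and old replicate 1 were the high samples and old replicate 2 the low one, so the groups overlapped across a 5.43-fold range. The fitted difference, old over young, was -0.47 on the log2 scale (SE 0.71, unadjusted p = 0.531, edgeR quasi-likelihood test over 15064 genes). It turned to 0.05 without young replicate 3 and to 0.12 without old replicate 2. Ahr overlaps the long noncoding RNA gene Gm48236 on the opposite strand.

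Arnt, the shared partner of several factors of this class, varied less. Arnt (chr3:95434388-95497240, plus strand) was at 11.4, 24.9 and 20.7 CPM (young) and 17.1, 19.2 and 19.95 CPM (old). Its lowest and its highest value were both young, and the fitted difference was -0.04 (SE 0.23, unadjusted p = 0.855, edgeR). That sign was positive without young replicate 2, at 0.09, and without old replicate 2, at 0.04. Arnt overlaps the pseudogene Gm42672 on its own strand, so reads of the pair cannot be told apart with certainty.

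Neither repressor passed the test for age. Ahrr (chr13:74211118-74292331, minus strand) rested on 31 to 133 counts per sample, at 0.554, 0.160 and 0.244 CPM (young) and 0.456, 0.237 and 0.728 CPM (old). The groups overlapped, with a fitted difference of 0.71 (SE 0.83, unadjusted p = 0.430, edgeR) that became -0.15 without old replicate 3. Tiparp (chr3:65528410-65555518, plus strand) was at 50.3, 50.8 and 55.4 CPM (young) and 46.5, 40.9 and 26.6 CPM (old). Every old population lay below every young one, with means of 38.0 ± 10.2 and 52.2 ± 2.81 CPM (SD, n = 3 each), and old replicate 3 was the lowest. The fitted difference was -0.57 (SE 0.21, unadjusted p = 0.0371, adjusted p = 1.00 by edgeR), and the direction was the same in all 14 alternatives. Those alternatives are not all separate: the fits on the longer gene list only, without young replicate 1 and without old replicate 1 rest on the same samples for age. Tiparp was the 1 gene among the 6 tested members whose groups did not overlap, where 6.24% of all tested genes did not. Tiparp overlaps the pseudogene 4931440P22Rik on the opposite strand. None of the 6 members tested for age passed an adjusted p of 0.05, where 0.00664% of all tested genes, 1 of 15064, did. At an unadjusted p under 0.05, 560 genes passed, and of the tested members Tiparp alone was among them. DESeq2 called 232 genes, with no tested member among these.

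The target enzymes ranged more widely between populations than the receptor with its 5.43-fold range, and the spread did not follow age. For Cyp1a1 and Aldh3a1 a wide range comes with their selection on a peak. The range was 20.1-fold for Cyp1b1 and 13.9-fold for Nqo1. It was 4.54-fold for Ahrr and 2.08-fold for Tiparp, which are targets too. Cyp1a1 (chr9:57687928-57703824, plus strand), which oxidises polycyclic aromatic compounds, was at 0.187, 0.440 and 8.37 CPM (young) and 68.5, 0.0169 and 2.40 CPM (old). Old replicate 1 stood 8.18-fold above the next highest sample, young replicate 3. Old replicate 2 had 3 Cyp1a1 counts in 8725 cells, with a 95% exact Poisson interval of 0.00348 to 0.0494 CPM. The highest and the lowest sample were thus both old.

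Aldh3a1 (chr11:61207537-61218421, plus strand), which clears aldehydes made by lipid oxidation, was at 42.8, 4.69 and 4.73 CPM (young) and 207, 11.6 and 8.14 CPM (old). Old replicate 1 was 4.83-fold above the next sample, which for this gene was young replicate 1. The populations just below the leader therefore differed between the enzymes: young replicate 1 was high in Aldh3a1 and low in Cyp1a1, and young replicate 3 was high in Cyp1a1 and low in Aldh3a1. Young replicate 1 and old replicate 1 shared the shorter gene list. They stood above all other samples for Aldh3a1 (42.8 and 207 CPM) and for Nqo1 (97.5 and 133 CPM). They did not do so for the other members, such as Cyp1a1 at 0.187 and 68.5 CPM. The part of the gene list in these levels was not tested.

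Cyp1b1 (chr17:79701537-79715061, minus strand), a cytochrome P450 of connective tissue cells among others, was at 1.38, 0.352 and 7.06 CPM (young) and 4.87, 1.21 and 3.00 CPM (old). As for Ahr, young replicate 3 and old replicate 1 were the high samples. The groups overlapped, with a fitted difference of 0.01 (SE 1.17, unadjusted p = 0.996, edgeR) whose sign changed in 8 of 14 alternatives. Among the 8 were the overlapping fits on the longer gene list only, without young replicate 1 and without old replicate 1. Nqo1 (chr8:107388225-107403206, minus strand) was at 97.5, 9.55 and 48.9 CPM (young) and 133, 34.2 and 87.4 CPM (old). Its fitted difference of 0.82 (SE 0.71, unadjusted p = 0.293, edgeR) did not exceed the spread, since young replicate 1 lay above 2 of the 3 old populations. It was 0.17 without old replicate 3, 0.29 without young replicate 2 and 1.505 without young replicate 3.

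**Figure D1:**
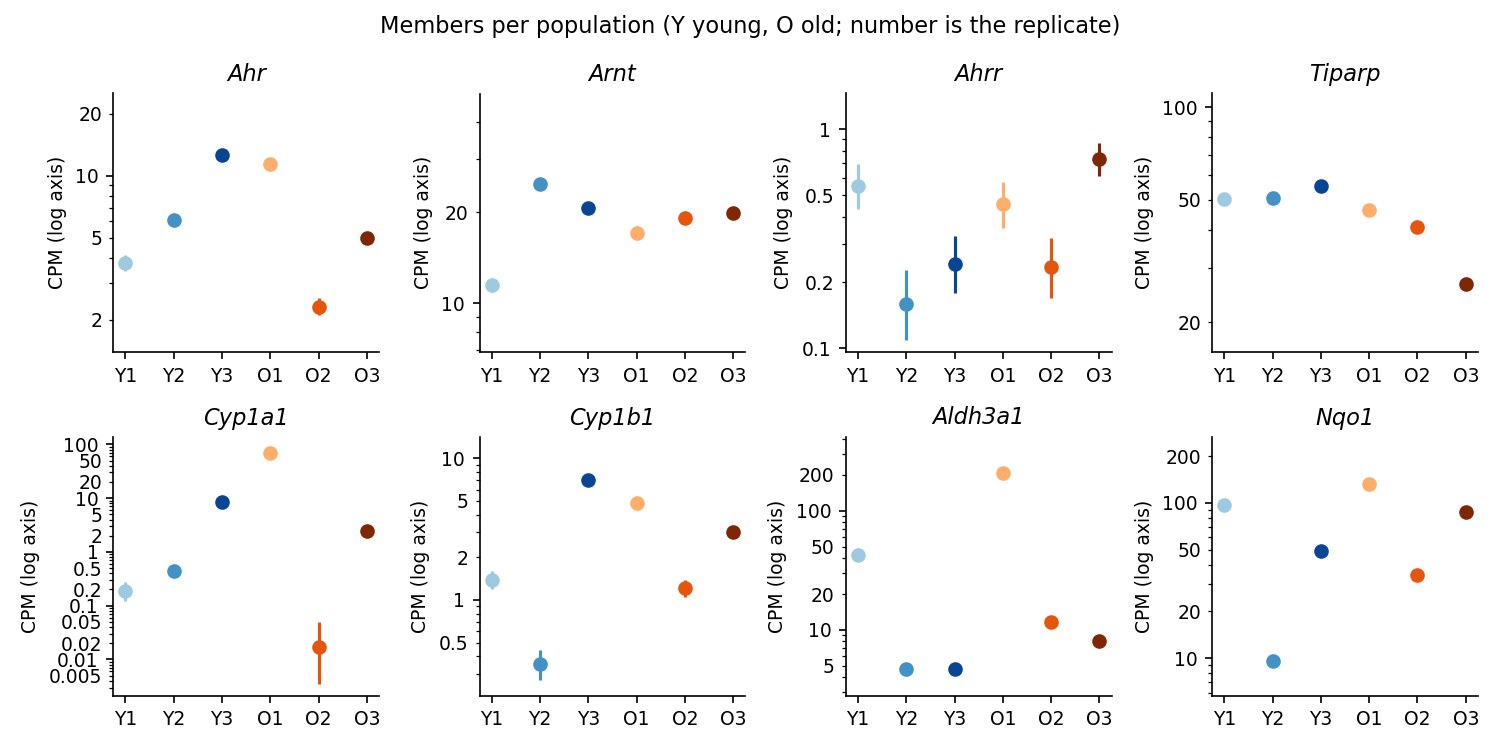
Level of each of the 8 genes in CPM (log axis, a separate scale for each gene) in the 3 young (Y, blue) and 3 old (O, orange) populations. Points are summed cells of 1 population and bars are 95% exact Poisson intervals, which cover counting error only. Aldh3a1 and Cyp1a1 peak in O1, and Tiparp is the gene whose old points all lie below its young points.

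Over the 6 populations, Ahr and Cyp1a1 followed a similar order (Pearson r = 0.79, Spearman rho = 0.89, on log2 CPM, n = 6), and Ahr and Aldh3a1 did not (r = 0.14, rho = -0.37). These are descriptions of 6 points that also differ in depth and in myogenic genes, and 28 such pairs were computed. Among 6483 genes above a mean of 4 on the log2 CPM scale, the 5 genes most like Cyp1a1 over the 6 samples were Hist1h1e (r = 0.99), Kntc1, Top2a, Kpna3 and Atm, and 32 genes had an r above 0.9. Top2a, a topoisomerase that untangles DNA, was at 135, 162 and 255 CPM (young) and 400, 127 and 165 CPM (old), and it was 1 of the 4 among 10 proliferation markers that were highest in old replicate 1. Those most like Ahr were Pcnt (r = 1.00), Mcm3, Pola2, Dnajc11 and Zfp451, with 145 genes above 0.9. Those most like Aldh3a1 were Plrg1 (r = 0.99), Nmt1, Nsa2, Zcchc9 and Rbm34, with 98 above 0.9. Nmt1, which attaches myristate to proteins, was at 128, 57.4 and 55.4 CPM (young) and 385, 71.1 and 59.7 CPM (old).

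The genes beside the leading pair on the chromosome did not share the size of their peak. The 3 tested genes on each side of Aldh3a1 were Map2k3, Kcnj12, Usp22, Aldh3a2, Slc47a1 and Mfap4. Their level in old replicate 1 was between 0 and 2.82 times the mean of the other populations, against 14.4 times for Aldh3a1. Both ends of that range were barely detected genes, Mfap4 at 0 and Slc47a1 at 0.350 CPM, and Kcnj12 was at 0.918 CPM. The higher neighbours Map2k3, Usp22 and Aldh3a2 lay at 1.67, 0.623 and 1.27 times. Its closest neighbour downstream, the related aldehyde dehydrogenase Aldh3a2, was at 10.1, 5.75 and 4.49 CPM (young) and 10.3, 13.7 and 6.36 CPM (old). Beside Cyp1a1, the genes Cplx3, Lman1l, Csk, Edc3, Clk3 and Arid3b lay between 0.522 and 1.66 times the mean of the others, against 30.0 times for Cyp1a1. Of these neighbours, Map2k3 (140 CPM against at most 104 elsewhere), Slc47a1, Csk, Clk3 and Arid3b were also highest in old replicate 1. The median shift of all genes on chromosome 9 in old replicate 1 was 0.15 on the log2 scale, that on chromosome 11 was 0.06, and that of all genes 0.09. For old replicate 2 the shift was -0.02 on chromosome 9 and 0.35 on chromosome 11, against 0.03 for all genes.

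Single cells showed how these totals were made up. To compare shares at equal depth, each cell was thinned to 5000 UMIs, and the 147 to 362 shallower cells of each sample were left out. A share was set beside the share that the same number of UMIs would give if spread evenly over the cells. In old replicate 1, 35.6% of 9906 cells (95% exact binomial interval 34.7 to 36.6) had an Aldh3a1 UMI, against 63.1% for an even spread. Cyp1a1 was found in 19.2% (18.5 to 20.03), against 28.6%. Both enzymes were thus held by fewer cells, at more UMIs each, than an even spread gives: the variance over the mean was 4.92 for Aldh3a1, and 1 cell held 174 of its UMIs before thinning.

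For Ahr the share with a UMI was close to that of an even spread, at a mean under 0.1 UMIs per cell, where these measures tell spreads apart poorly. Its share in old replicate 1 was 5.21% (4.78 to 5.66), against 5.37% for an even spread, and its variance over the mean lay between 1.04 and 1.07 in all 6 populations. At a like mean level, 0.0576 UMIs per cell in old replicate 2 against 0.0552 for Ahr in old replicate 1, the variance over the mean of Aldh3a1 was 1.42 against 1.07. Over the populations, Ahr was seen in 0.881% to 5.81% of cells at 5000 UMIs, or 4.29% to 18.1% of cells at full depth. Arnt was seen in 5.78% to 11.7% and Tiparp in 11.8% to 22.7% of cells at 5000 UMIs. Ahrr reached at most 0.369%. Nqo1 ranged from 4.28% in young replicate 2 to 41.0% in old replicate 1. Free RNA in the droplets was not measured, and the data hold no cell type that should lack these genes to set a background share.

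Aldh3a1 was also spread unevenly outside the leading population. In young replicate 1, 13.5% of cells had an Aldh3a1 UMI, against 19.2% for an even spread, with a variance over the mean of 2.32. In young replicates 2 and 3, where it was low, the shares were close, at 2.08% against 2.19% and at 2.14% against 2.24%. Cyp1a1 in young replicate 3 was in 3.72% of cells, against 4.15%. In old replicate 3 it was in 0.542% of cells, or 66 cells, against 0.695%.

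**Figure D2:**
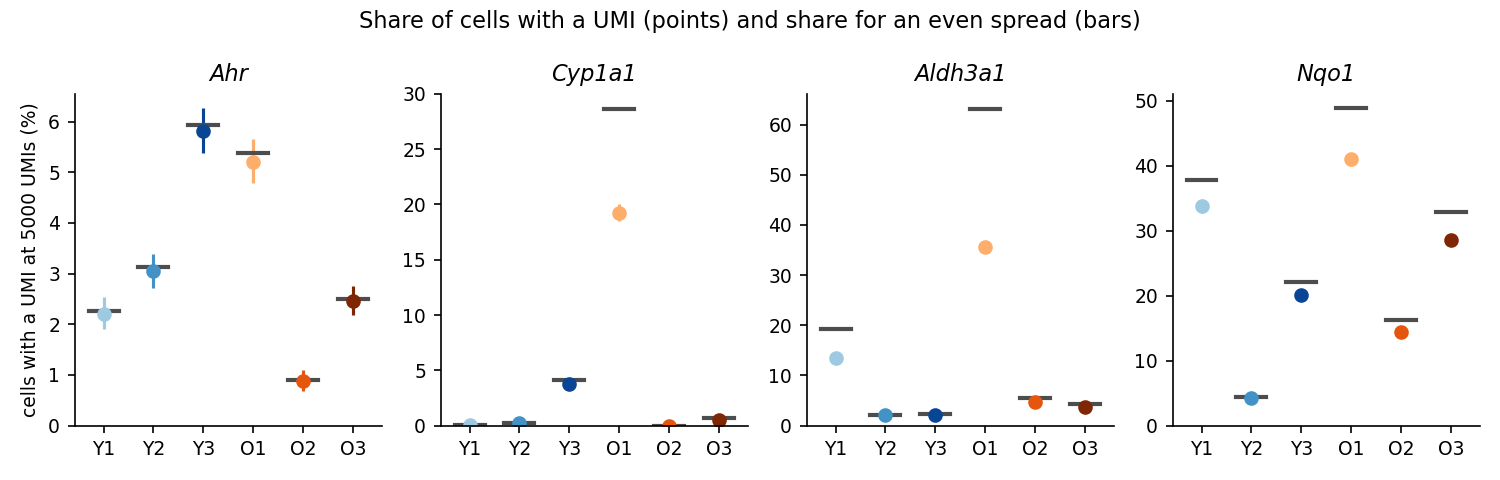
Share of cells with at least 1 UMI after thinning to 5000 UMIs (points, percent, with 95% exact binomial intervals) and the share for an even spread of the same UMIs (grey bars) for Ahr, Cyp1a1, Aldh3a1 and Nqo1 in the 3 young (Y) and 3 old (O) populations. The gap is wide for Aldh3a1 in O1 (35.6% against 63.1%) and small for Ahr (5.21% against 5.37%), which is at a lower level.

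Several pairs of target enzymes were found in the same cells more often than their separate shares give, though not in every population. Co-detection was measured as the number of cells with UMIs of both genes over the number expected if the genes were independent. Its interval is the exact binomial one of the observed count over the cells. That interval treats the cells of 1 library as independent and covers counting error only, so no ratio is tested here. In old replicate 1, 1315 cells held both Cyp1a1 and Aldh3a1, where 679 were expected, a ratio of 1.94 (95% interval 1.84 to 2.04). In old replicate 3 the ratio was 4.93 (2.55 to 8.61), from 12 cells, and in young replicate 3 it was 1.65 (0.902 to 2.77), from 14 cells. The other 3 populations had under 2 expected cells.

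Aldh3a1 and Nqo1 were found together above expectation in all 6 populations, with ratios from 1.41 to 2.42 and every interval above 1. Cyp1a1 and Nqo1 were so in the 3 populations with at least 5 expected cells, at 1.60 in young replicate 3, 1.497 in old replicate 1 and 2.07 in old replicate 3. Ahr and Cyp1a1 gave 1.74 (1.49 to 2.02) in old replicate 1 and 1.13 (0.738 to 1.65) in young replicate 3, and in old replicate 3 they met in 7 cells against 1.62 expected, at 4.32 (1.74 to 8.90). Cyp1b1 and Nqo1 gave 1.58 (1.34 to 1.85), 3.61 (2.38 to 5.24) and 2.00 (1.51 to 2.60) in old replicates 1 to 3. The young populations gave 1.09 (0.675 to 1.67), 1.06 (0.0269 to 5.91, with 0.942 expected cells) and 0.897 (0.688 to 1.15), and the difference between old and young was not tested. Ahr was found with Aldh3a1 at 1.51 (1.34 to 1.70) in old replicate 1 and 2.18 (1.40 to 3.24) in old replicate 3. The interval of that pair held 1 in the other 4 populations, at 1.27 (0.871 to 1.79), 0.888 (0.326 to 1.93) and 1.51 (0.922 to 2.33) in young replicates 1 to 3 and at 2.23 (0.963 to 4.39) in old replicate 2. Ahr with Nqo1 ran from 0.577 to 2.31, with the interval above 1 in 3 of 6 populations. Arnt showed no such excess with the enzymes: in populations with at least 5 expected cells its ratios with Cyp1a1 ran from 0.617 to 1.07 and those with Nqo1 from 1.04 to 1.07, and no interval lay wholly above 1.

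Cyp1a1 and Cyp1b1 met in 81 cells of old replicate 1 against 45.8 expected, a ratio of 1.77 (1.41 to 2.20), and in 16 cells of young replicate 3 against 12.8 expected, a ratio of 1.25 (0.712 to 2.02). In old replicate 3 they met in 14 cells against 0.531 expected, a ratio of 26.4 (14.4 to 44.2). Of the 28 gene pairs, none had an interval wholly below 1 in a population with at least 5 expected cells. Cells differ in depth and state, which the expected number does not take up. Median depth was close between cells with and without an Aldh3a1 UMI in old replicate 1 (13915.5 against 13497 UMIs), and apart between cells with and without a Cyp1a1 UMI in old replicate 3 (18100.5 against 13174). The part of depth in these ratios was not tested.

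**Figure D3:**
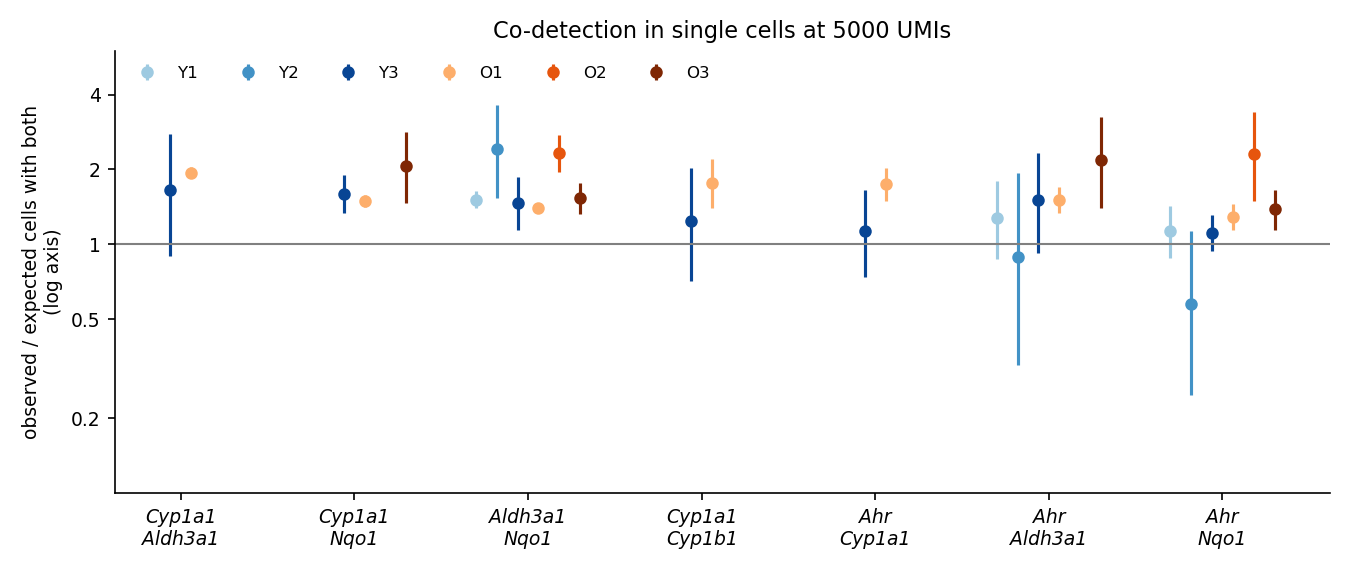
Observed over expected number of cells with UMIs of both genes of a pair (log axis) at 5000 UMIs per cell, by population, where at least 5 such cells were expected. Bars are 95% exact binomial intervals of the observed count, which cover counting error only, and the line marks 1. Aldh3a1 with Nqo1 lies above 1 in all 6 populations, and Ahr with Aldh3a1 has intervals above 1 in O1 and O3.

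Cells of old replicate 1 with an Aldh3a1 UMI were set beside those without. Over 5731 genes, the 5 with the highest ratio were Cyp1a1 (143 against 25.8 CPM, ratio 5.53), Pla2g7 (2.98), Clec4d (2.85), Slc7a11 (2.84) and Mgp (2.74). Slc7a11, the cystine importer that feeds glutathione synthesis, was at 64.8 against 22.8 CPM. Its ratio was above 1 in the other 5 populations too, from 1.43 in young replicate 3 to 2.49 in young replicate 1. Mgp, a matrix protein that restrains calcification, was 5.25, 5.49 and 9.70 times as high in such cells of old replicate 2, old replicate 3 and young replicate 2, and 0.839 and 1.18 times as high in young replicates 1 and 3. Clec4d, a lectin receptor known from myeloid cells, had ratios of 2.98 in old replicate 2, 2.19 in young replicate 1 (201 against 91.7 CPM), 3.202 in young replicate 2 and 0.528 in old replicate 3, the last at 0.904 against 1.71 CPM.

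Cells with a Cyp1a1 UMI differed between populations, and the genes named here were chosen after their values were seen. In old replicate 1 the leading genes were Aldh3a1 (529 against 121 CPM), Ifitm1, Mgp, Slc7a11 and Clec4d. In the 66 such cells of old replicate 3 they were Foxs1, Itgbl1, Cyp1b1 (55.3 against 1.74 CPM), Vmn2r79 and the collagen VI chain Col6a3 (64.6 against 2.91 CPM). The Cyp1b1 level of these cells came from 18 counts. Levels near or below it in these cells, such as those of Pax7 and Myf5 given next, rest on few counts. In those 66 cells the 10 myogenic markers summed to 683 against 2537 CPM. Myog was at 70.7 against 994 CPM, Myod1 at 298 against 937 CPM and Des at 178 against 437 CPM, while Pax7 and Myf5, which mark earlier myogenic cells, were at 36.9 against 35.4 and 36.9 against 30.9 CPM. The 10 fibro-adipogenic markers summed to 415 against 253 CPM, of which Gsn held 311 against 181 CPM, and 5 of the 10 were at 0 in the 66 cells. Their sum was 245 against 197 CPM in old replicate 1 and 302 against 295 CPM in young replicate 3. Mural markers of the 66 cells summed to 347 against 1561 CPM, adipocyte markers to 27.7 against 118 CPM and epithelial markers to 30.7 against 17.6 CPM. In old replicate 1, whose cells hold little myogenic RNA, the 10 myogenic markers summed to 62.4 against 173 CPM, with Pax7 at 5.04 against 14.8 and Myf5 at 1.58 against 13.6 CPM. In young replicate 3 they summed to 121 against 161 CPM, with Myf5 at 26.1 against 33.9 CPM.

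Myogenic commitment was then compared within populations, which the choice of genes did not use. Cells with a Myog UMI at 5000 UMIs were set against cells without one, summed per population, with the population as a block. In Myog-positive cells Ahr, Nqo1, Aldh3a1 and Tiparp fell and Arnt rose. Thus 4 of 8 members were lower and 1 was higher, where 19.9% of 14857 genes were lower and 14% higher at an adjusted p under 0.05 by edgeR. The median over the 8 members was -0.78 on the log2 scale, against -0.07 over all genes tested. Young populations held 293, 2164 and 565 Myog-positive cells, and old ones 70, 1254 and 5577.

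Ahr was at 0.771, 3.40 and 9.60 CPM in Myog-positive cells of the young populations and 7.47, 0.991 and 2.71 CPM in those of the old ones. In Myog-negative cells it was at 3.83, 6.77 and 12.7 CPM and at 11.4, 2.54 and 6.89 CPM. The positive class was lower in 6 of 6 populations, with a fitted change of -1.01 (SE 0.17, adjusted p = 0.00293, edgeR), though the positive cells of young replicate 1 and old replicate 1 held only 3 and 7 Ahr counts. The call held with each population left out.

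Nqo1 was at 58.3, 9.20 and 42.4 CPM in the positive and 98.7, 9.64 and 49.3 CPM in the negative cells of the young populations. In the old ones it was at 76.9, 17.7 and 53.7 CPM against 133, 37.0 and 116 CPM. It was lower in 6 of 6 populations (-0.64, SE 0.15, adjusted p = 0.0115, edgeR), and the call held with each population left out. The drop was small in young replicates 2 and 3, with ratios of 0.954 and 0.860, and between 0.464 and 0.591 in the other 4.

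Aldh3a1 in the positive cells was at 21.3, 4.44 and 4.59 CPM (young) and 89.7, 4.15 and 4.35 CPM (old). In the negative cells it was at 43.5, 4.74 and 4.74 CPM and at 208, 12.9 and 11.4 CPM. The positive class was lower in 6 of 6 populations (-0.91, SE 0.23, adjusted p = 0.0216, edgeR). As for Nqo1, young replicates 2 and 3 changed least, with ratios of 0.936 and 0.968. Leaving out young replicate 1 gave an adjusted p of 0.0626, and leaving out old replicate 1, 2 or 3 gave 0.0552, 0.0545 or 0.0734.

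Tiparp was lower in the positive cells of 6 of 6 populations by a small amount, with ratios from 0.753 to 0.949 (-0.24, SE 0.07, adjusted p = 0.0313, edgeR). Leaving out young replicate 1 or 2 gave an adjusted p of 0.0653 or 0.0945, and leaving out old replicate 1 or 3 gave 0.0500 (just above 0.05) or 0.0917. Arnt was higher in 5 of 6 populations, with ratios from 0.940 in old replicate 1 to 1.30 in young replicate 1 (0.25, SE 0.07, adjusted p = 0.0284, edgeR). Its adjusted p was 0.0515, 0.0770, 0.102 and 0.0808 without young replicate 1, young replicate 2, old replicate 2 and old replicate 3. Leaving out young replicate 1, old replicate 1 or old replicate 3 brought the count of lower members to 2.

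Both cytochrome P450 genes and Ahrr did not pass the test. Cyp1a1 in positive cells was at 0.514, 0.418 and 8.64 CPM in the young populations, beside 0.178, 0.446 and 8.35 CPM in their negative cells, and the first of these rested on 2 counts in the positive cells. In old replicates 1 and 3 it was at 24.6 and 0.571 CPM against 68.9 and 3.98 CPM, and old replicate 2 held no count in its 1254 positive cells and 3 in its negative ones. The fitted change was -1.08 (SE 0.49, adjusted p = 0.135, edgeR), and it was -1.64 with an adjusted p of 0.0464 without young replicate 3. Cyp1b1 changed by -1.11 (SE 0.45, adjusted p = 0.0952) and Ahrr by -0.41 (SE 0.31, adjusted p = 0.341). The difference of the change between old and young was tested directly: it was -2.26 for Cyp1a1 (SE 0.42, unadjusted p = 0.000386, adjusted p = 0.858, edgeR) and -2.21 for Cyp1b1 (SE 0.47, unadjusted p = 0.00104, adjusted p = 0.858). No gene of 14857 passed that test (0%).

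**Figure D4:**
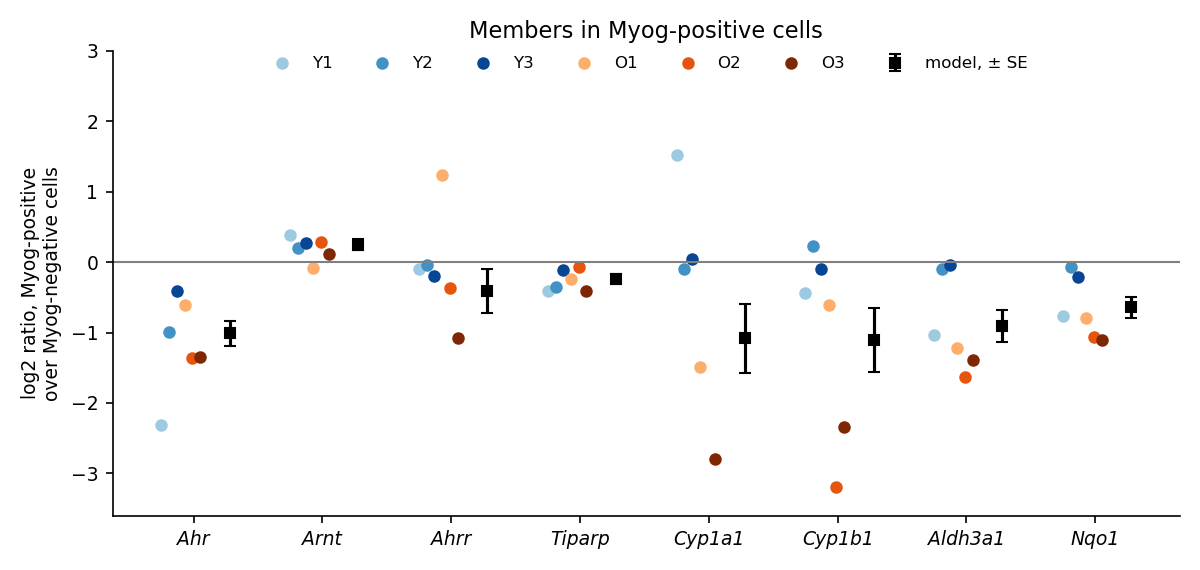
Log2 ratio of the level in Myog-positive over Myog-negative cells for the 8 genes, per population (coloured points, Y young, O old) and as fitted over all 6 populations (black square with its SE). A population with no count in its positive cells has no point, which leaves out O2 for Cyp1a1. Ahr, Tiparp, Aldh3a1 and Nqo1 lie below 0 in all 6 populations, and Arnt lies above 0 in 5.

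The rest of the pathway was read from lists of related genes. In each count below, 19.9% lower and 14% higher is the share over all 14857 genes. Of 17 other known targets of the receptor, 11 passed the filter on low counts, and 6 of them fell in Myog-positive cells and none rose (median -1.11). Of the 4 with the highest mean level, Ptgs2, the inducible cyclooxygenase, fell by 1.24 on the log2 scale (SE 0.21, adjusted p = 0.00590, edgeR). Nfe2l2, which encodes NRF2, was at -0.18 (adjusted p = 0.0853), and Gstm1 and Hes1 were at 0.03 and 0.02 (adjusted p = 0.804 and 0.958). The other 5 that fell, named after their values were seen, were Ereg, Serpinb2, Gsta1, Xdh and Cdkn1b. With 1 population left out, the number that fell was between 5 and 7.

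Of 22 NRF2 targets, 17 fell and none rose (median -0.49), beside 19.9% lower and 14% higher of all genes. Ftl1, the ferritin light chain, fell by 0.60 (SE 0.10, adjusted p = 0.00388, edgeR), while Fth1, the heavy chain, was at 0.01 (adjusted p = 0.910), Prdx1 at -0.11 (adjusted p = 0.185) and Taldo1 at -0.25 (adjusted p = 0.0510). Those that fell included, chosen after their values were seen, both subunits of the enzyme that starts glutathione synthesis, Gclc at -0.41 and Gclm at -0.58. With 1 population left out, between 15 and 17 fell. The list shares no gene with the 8 members.

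Of 14 genes of the receptor's complex and its coactivators, 3 fell and 1 rose (median -0.06), shares near or under those of all genes. Ptges3, the HSP90 helper p23, fell by 0.24 (adjusted p = 0.0121, edgeR), and Hsp90ab1, Hsp90aa1 and Nedd8 were at 0.00, -0.19 and 0.08 without passing. The gene that rose, named after its value was seen, was the coactivator Ncoa1 (1.53, SE 0.12, adjusted p = 0.000181). Of 8 tested enzymes of tryptophan breakdown, 2 fell and 2 rose (median 0.07). Ddc, an aromatic amino acid decarboxylase, rose by 2.30 (adjusted p = 0.0237), Kyat3 fell by 0.53 (adjusted p = 0.0293), and Afmid and Kyat1 were at 0.07 and 0.45 without passing. Of 17 other aldehyde dehydrogenases, 3 fell and 2 rose (median -0.25), which again is near the shares of all genes (19.9% and 14%). Aldh2 was at -0.24 (adjusted p = 0.0845), and Aldh7a1, Aldh18a1 and Aldh9a1 fell by 0.29, 0.25 and 0.44. All these lists were drawn up with earlier results of the data known, and their counts describe them without a test of the list.

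Myog-positive cells differed from the others in more than commitment. Of 10 proliferation markers, 5 fell and none rose (median -0.86). The share of cells high in these markers was lower in the positive class in 6 of 6 populations, from 11.6% against 42.0% in old replicate 2 to 74.3% against 82.8% in young replicate 3. Median depth was between 10743 and 20447.5 UMIs in positive and between 13368.5 and 20042 UMIs in negative cells. The part of proliferation and depth in the changes was not tested in 1 model with commitment.

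**Figure D5:**
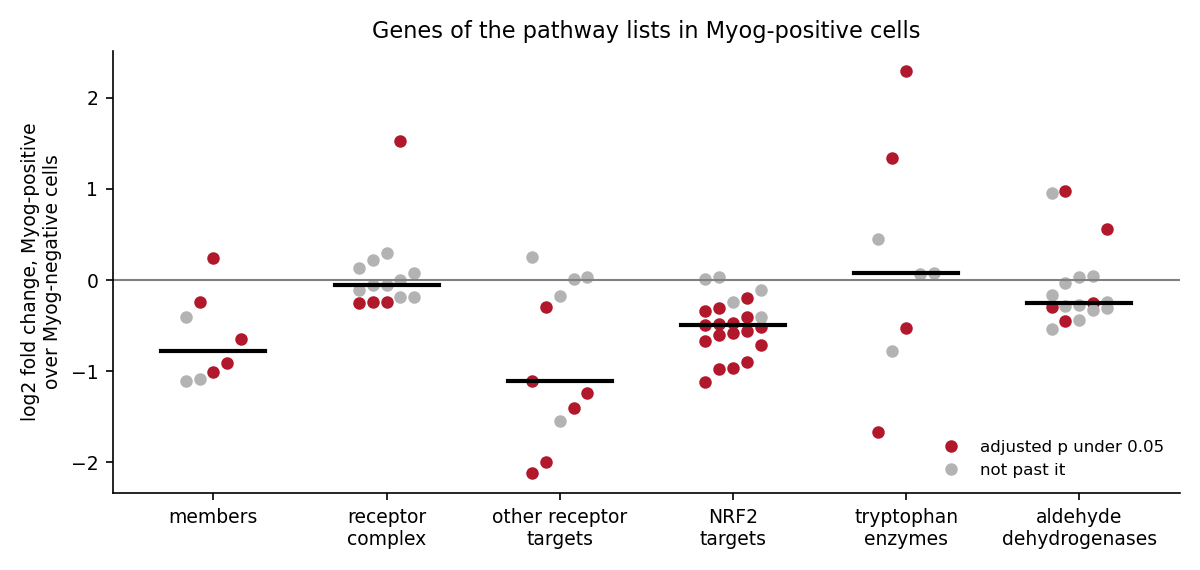
Fitted log2 change in Myog-positive against Myog-negative cells for each tested gene of the 8 members and of 5 related lists (points, red where the adjusted p was under 0.05 by edgeR), with the median of each list (black line). The other receptor targets and the NRF2 targets lie mostly below 0, with medians of -1.11 and -0.49.

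Cells were also split by proliferation markers. Cells with at least 3 UMIs of the 10 proliferation markers at 5000 UMIs, 37.6% to 82.3% of each population, were set against the rest. This split also differed in commitment and depth: the share of Myog-positive cells was lower in the marker-high class in 6 of 6 populations, for example 4.54% against 20.9% in old replicate 2, and median depth was higher in 6 of 6, for example 14227 against 11863 UMIs in old replicate 3. Of the 8 members, 1 was lower and none was higher, where 25.1% of 14781 genes were lower and 19.1% higher. That gene was Arnt, at 10.2, 22.5 and 19.7 CPM in the marker-high and 12.5, 28.7 and 26.6 CPM in the other cells of the young populations. In the old ones it was at 16.6, 16.0 and 19.1 CPM against 18.7, 21.4 and 21.7 CPM, lower in 6 of 6 populations (-0.31, SE 0.05, adjusted p = 0.00101, edgeR), and the call held with each population left out. Ahr was at 0.13 (SE 0.12, adjusted p = 0.411), Nqo1 at 0.05 (SE 0.10, adjusted p = 0.742) and Aldh3a1 at -0.16 (SE 0.21, adjusted p = 0.594). Without old replicate 2, Ahr was at 0.016 and Aldh3a1 at -0.34 (adjusted p = 0.0930, edgeR), and without old replicate 3 Aldh3a1 was at -0.017. Cyp1a1 was higher in the marker-high cells of 5 of 6 populations and lower in old replicate 1, at 66.2 against 77.2 CPM, though old replicate 2 rested on 2 counts against 1 and young replicate 1 on 15 against 10. Its fitted change was 0.25 (SE 0.15, adjusted p = 0.199), and 0.49 with an adjusted p of 0.0387 without old replicate 1. The difference of that change between old and young was -0.74 (SE 0.19, unadjusted p = 0.00301, adjusted p = 1.00, edgeR), and no gene of 14781 passed that test (0%).

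Between old and young populations, the related lists showed no called gene. The median change was 0.39 over 11 other receptor targets, 0.17 over 22 NRF2 targets, -0.16 over 14 complex genes, -0.09 over 8 tryptophan enzymes and 0.08 over 17 aldehyde dehydrogenases, against -0.01 over all genes tested. Nfe2l2 was at 117, 71.6 and 51.9 CPM (young) and 190, 88.5 and 72.0 CPM (old). Its highest levels were those of old replicate 1 and then young replicate 1, both counted on the shorter list. Ptgs2 was high in both samples counted on the shorter list, young replicate 1 (222 CPM) and old replicate 1 (218 CPM), and between 15.9 and 44.1 CPM in the other 4. Old replicate 1 was the highest sample for 5 of the 11 tested other receptor targets and 4 of the 22 NRF2 targets, where it was so for 25.5% of all genes tested. Among the members other than Aldh3a1 and Cyp1a1, which were selected for that peak, it was the highest for Nqo1 alone. Chosen after its values were seen, Aldh1b1, a mitochondrial aldehyde dehydrogenase, was at 12.3 CPM in old replicate 1 and at 0.0847 to 0.158 CPM elsewhere. Ereg, which encodes the growth factor epiregulin, was also chosen after its values were seen. Its level was 1.51, 0.0103 and 0 CPM (young) and 20.2, 2.32 and 2.71 CPM (old). All old populations lay above all young ones for Ereg (unadjusted p = 0.00654, adjusted p = 0.992 by edgeR). Ereg was the 1 gene of the 11 tested other receptor targets whose groups did not overlap, where 6.24% of all tested genes did not.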

How the data were processed

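The deposited files were filtered 10x matrices of raw UMI counts per gene and cell barcode, with no normalization by the authors, made with Cell Ranger 7.2.0 per the submitters' processing notes; the file headers of young replicate 1 and old replicate 1 name version 7.0.0. The build was mm10 per the same notes. Intron handling is not given in the sources used here.

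Cells were kept at 1000 UMIs, 500 genes and under 15% mitochondrial UMIs. The 21485 gene identifiers that both gene lists share held 98.5% to 99.9% of UMIs. No doublets were removed and no caller was run. Counts were summed per population, or per population and cell class, and tested two-sided by the robust quasi-likelihood method of edgeR 4.0.16 (R 4.3.3) after filterByExpr and TMM scaling, adjusted by Benjamini-Hochberg over all genes tested, with terms for gene list and age, or population and class. DESeq2 1.42.0 was an alternative. Thinning was random with a fixed seed. The edgeR fits were run on simulated counts to check the sign of the fitted changes. The simulated spread between samples was smaller than that of the age fit, so the power of the age test was not measured. CPM in class comparisons and cell splits are unscaled. Intervals cover counting error only. Promoters are RefSeq's and gene positions are from an annotation of the same build as the files.

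The 8 genes, the lists and the tests were chosen with earlier results of these data known. All 8 were named; from each list, genes called for age, or otherwise the 4 with the highest mean CPM; the 5 genes most like Aldh3a1, Cyp1a1 and Ahr; the 5 leading genes of Aldh3a1-positive cells in old replicate 1; and 3 tested neighbours on each side of the leading pair. Same-numbered samples were not treated as pairs. P-values set a fitted age difference against the spread between these populations. For cell classes they set the class difference against its own spread between the populations.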

Additional observations from a re-analysis of the deposited data

Results flagged for a closer look

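Aldh3a1 was also counted outside the kept cells. The 69 barcodes of old replicate 1 with under 1000 UMIs, which the comparisons do not use, held 7 Aldh3a1 counts, or 148 CPM (95% exact Poisson interval 59.4 to 304). Those of young replicates 1, 2 and 3 held none, which allows up to 39.8, 32.0 and 41.7 CPM by the same interval. Those of old replicate 3 held none either (up to 27.8 CPM), and those of old replicate 2 held 1 count (12.4 CPM). The level in the kept cells of old replicate 1 was 207 CPM.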

How the results depend on the processing

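Between old and young populations, edgeR called 1 gene, no member. DESeq2 called 232. Without the gene list term and with the 4 samples of the longer list the count was 0, with 501 and 998 genes at an unadjusted p under 0.05, and with 1 population left out it was 0 to 3. Without young replicate 1 or old replicate 1, the gene list term takes up the remaining sample of the shorter list. Those fits therefore rest on the 4 samples of the longer list for age. The fit with a replicate block called 1 gene and changed no other call; same-numbered samples correlated at 0.38, 0.22 and -0.06 in their deviations, so they were not taken to pair the samples; both samples numbered 1 share the shorter gene list. The age difference of Cyp1b1 was -0.0022 with DESeq2, -0.0026 with RLE size factors, -0.67 on the longer list only and -0.68 without the cells of highest UMI count, and ran from -0.71 to 2.09 with 1 population left out. That of Ahr ran from -1.27 to 0.12, of Arnt from -0.17 to 0.094 and of Ahrr from -0.15 to 1.36. The cause was not tested.

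In proliferation-marker-high cells, Cyp1a1 was at -0.026 with 1 or more marker UMIs and Ahrr at -0.024 with 6 or more. With 1 population left out, Cyp1b1 ran from -0.12 to 0.30 and Nqo1 from -0.054 to 0.13. In Myog-positive cells, 5040 genes were called, and 3315 to 5163 with 1 population left out, lowest without old replicate 3. Arnt did not pass with no filter on low counts (adjusted p = 0.0917, edgeR). With 2 or more Myog UMIs old replicate 1 was left out, since 37 cells remained. The counts of called list genes with 1 population left out were added after the data were seen. Co-detection of Aldh3a1 and Cyp1a1 in old replicate 1 was 1.96 without the cells of highest UMI count. Depth sets the shares: the mean share of cells with an Ahr UMI was 3.27% at 5000 UMIs and 9.69% unthinned. Ahrr, at 31 to 133 counts per sample, is limited by depth.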
